A study of Homo sapiens with 6 samples.

Results

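This account covers 7 genes of the interferon regulatory factor (IRF) family, IRF1, IRF2, IRF3, IRF5, IRF7, IRF8 and IRF9, out of the 33095 genes listed in each of 2 deposited tables. The genes were chosen by symbol, and each symbol occurred once in each table. IRF4, the family member on which myeloma cells depend, is described only where its values bear on the others. MM.1S (written MM1.S in some labels) is an established human multiple myeloma line, grown here in RPMI medium with fetal bovine serum. Lentivirus delivered 1 of 3 constructs: a scramble control hairpin, IRF3 shRNA 1 or IRF3 shRNA 2, and each arm is represented by 2 poly(A)-selected RNA libraries. All 6 libraries therefore come from transduced cells of 1 line, and no library of untransduced cells enters the comparisons. The tables carry the authors' DESeq2 results for shRNA 1 against scramble and shRNA 2 against scramble, both of which share the scramble libraries. Nothing in the labels states that the libraries of an arm are separate cultures, so the p-values measure the spread between libraries, which may be technical.

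IRF proteins share a DNA-binding domain that recognises GAAA-type sequences in the promoters of interferon and interferon-stimulated genes. IRF3 and IRF7 lie dormant in the cytoplasm until kinases such as TBK1 phosphorylate them downstream of nucleic acid sensors, after which they induce type I interferon. IRF5 is activated mainly downstream of endosomal Toll-like receptors, IRF1 and IRF2 act as an activator and an attenuator at overlapping sites, IRF8 serves B cells and myeloid cells, and IRF9 joins STAT2 in the complex ISGF3 that answers type I interferon.

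Promoter sequences are shown first, because several IRF genes are themselves targets of interferon signalling. The windows are those of RefSeq (GRCh38.p14), 300 bases from 250 before to 50 after an annotated start, and 4 of the 7 genes matched, with 8 windows: IRF1 and IRF9 with 1 each, IRF8 with 2 and IRF5 with 4. IRF2, IRF3 and IRF7 did not match. The 2 IRF8 windows belong to starts at 85902830 and 85903015, inside the annotated gene, which begins at 85898803. The sequence before that first base of IRF8 was therefore not searched. The same holds for IRF5, whose 4 windows begin at 128937677 or later, inside a gene annotated from 128937612. The IRF9 window begins at 24161015, and the annotated gene begins at 24161053. From 250 to 51 bases before the RefSeq start, 162 bases of the IRF9 window lie in IRF9 exons. Each window was searched on both strands for an ISRE-type sequence bound by IRFs (GAAANNGAAA), a GAS-type sequence bound by STAT dimers (TTCNNNGAA, which is its own reverse complement) and an ETS-IRF composite (GGAANNGAAA, which can overlap the first). The GAS-type letters occurred in the windows of IRF1 and IRF9, and in 7.66% of all 35116 windows. The IRF9 match lies in an annotated exon of IRF9 and not before the annotated gene. The ETS-IRF letters occurred in 1 window of IRF5 and in 2.82% of all windows. The IRF5 match also lies inside its annotated gene. The ISRE-type letters occurred in none of the 8 windows and in 3.57% of all windows, which says only that these exact letters are not in these windows. A match is a string of letters and not a measured binding site. The sequences below run 5′ to 3′ along the gene, with the match in capitals. The first is the stretch from 250 to 51 bases before the IRF1 start (chr5:132490824-132491023, minus strand), and the others are short windows of IRF9 (chr14:24161193-24161219, plus strand) and IRF5 (chr7:128940628-128940655, plus strand).
IRF1: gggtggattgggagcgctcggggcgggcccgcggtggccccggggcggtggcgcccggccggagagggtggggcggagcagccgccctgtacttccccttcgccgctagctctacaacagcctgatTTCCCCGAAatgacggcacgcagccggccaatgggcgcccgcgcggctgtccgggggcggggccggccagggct
IRF9: ccacgtgatTTCTGGGAAaaggccctc
IRF5: tctagccacTTTCGTTTCCcctggggcc

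All 7 genes were expressed. Their mean normalised read counts over the 6 libraries ran from 291 (IRF8) to 4815 (IRF5) in the authors' deposited tables, and all 7 carried an adjusted p in both comparisons, so none was lost to the filter on low counts. No level of an individual library is listed, so replicate values and their SDs cannot be shown. The mean of each arm was reconstructed from the overall mean and the 2 fold changes, with a 95% interval from the dispersion that the deposited SEs imply. Divided by the length of all annotated exons, the reconstructed level in scramble cells was 935 normalised reads per kilobase (95% interval 865 to 1010) for IRF5, 821 (742 to 908) for IRF2 and 740 (672 to 816) for IRF3. Below these stood IRF1 at 378 (348 to 410), IRF7 at 284 (246 to 328), IRF9 at 106 (88.0 to 127) and IRF8 at 52.6 (41.7 to 66.4) reads per kilobase. Neighbours in this order overlapped in their intervals for IRF5 with IRF2 and for IRF2 with IRF3, and the other neighbours were separated.

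The order changed with shRNA 1 in 1 place. IRF3 dropped from the third to the fourth rank in reconstructed level, at 257 reads per kilobase (232 to 285), below IRF1 at 415 (383 to 451), and its interval then overlapped that of IRF7 at 215 (185 to 249). With shRNA 2 the order was that of scramble cells, with IRF5 at 1245 (1153 to 1344), IRF3 at 653 (592 to 719), and the intervals of IRF9 and IRF8 overlapping. These levels depend on the length used: per longest transcript, IRF9 rises from 106 to 218 and IRF8 from 52.6 to 89.6 reads per kilobase in scramble cells. The rank order of the 7 genes in each arm was identical under both lengths.

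**Figure D1:**
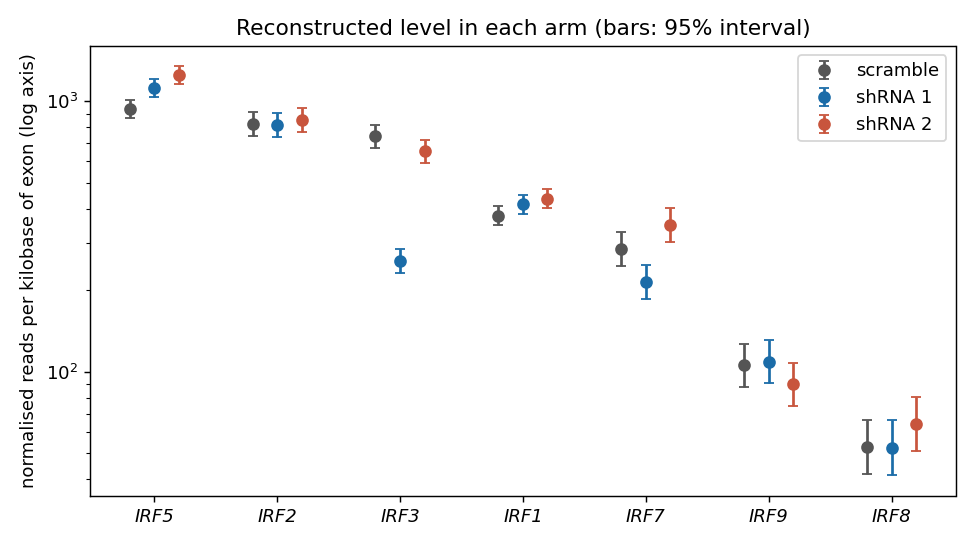
Reconstructed level of each IRF gene in normalised reads per kilobase of exon (log axis), with points for scramble, shRNA 1 and shRNA 2 arms and bars for 95% intervals from the reconstructed dispersion. IRF3 with shRNA 1 (257) lies below its scramble level (740), and IRF5 is the gene with the highest level in all 3 arms.

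Of the 7 genes, IRF3 and IRF7 fell and IRF5 rose with shRNA 1, while IRF1 and IRF5 rose and none fell with shRNA 2, at an adjusted p below 0.05 in the authors' deposited tables (DESeq2). With shRNA 1 this is 3 of 7, against 24.6% of all 14488 tested genes called (9.8% higher, 14.8% lower). With shRNA 2 it is 2 of 7, against 29% of all 17054 tested genes (10.9% higher, 18.1% lower). These shares over all genes include genes of low counts, which are called less often. Readjusted over the 12977 genes with a mean of 50 or more, 3603 genes were called with shRNA 1 and 4957 with shRNA 2. The same limit holds wherever a list below is set beside all tested genes. Unadjusted p in the authors' deposited table was below 0.05 for 3 members with shRNA 2, IRF1, IRF5 and IRF7, all with higher values. The median log2 fold change over the 7 genes was -0.01 with shRNA 1 and 0.21 with shRNA 2, beside medians of -0.03 and -0.00261 over all tested genes, from the authors' deposited tables. The difference between the hairpins, tested by z on the deposited values, was called for 2 of 7 members, both with the higher level under shRNA 2, against 24% of 14488 genes (10.1% higher, 13.8% lower). With counts this small, the share of members called is not separated from the share over all genes.

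**Figure D2:**
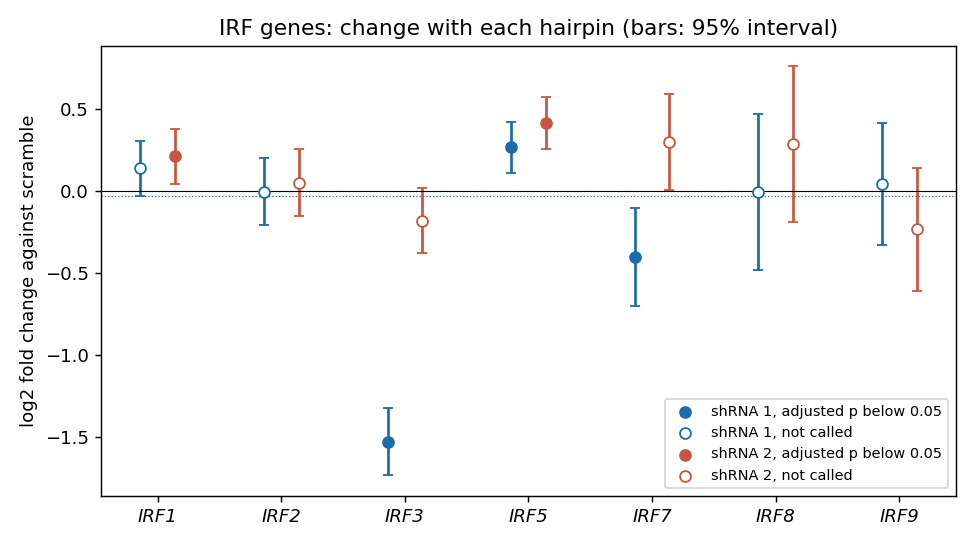
Log2 fold change of each IRF gene against scramble for shRNA 1 and shRNA 2 (vertical axis), with 95% intervals as bars, filled points for an adjusted p below 0.05 and dotted lines at the medians of all tested genes. IRF3 stands at -1.53 with shRNA 1 and at -0.18 with shRNA 2, and IRF7 lies on opposite sides of zero.

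IRF3 (ENSG00000126456, chromosome 19, 49659569 to 49665875, minus strand, GRCh38) is the target of both hairpins. Its reconstructed mean was 2809 normalised reads in scramble cells, 974 (878 to 1080) with shRNA 1 and 2476 (2246 to 2729) with shRNA 2. The shRNA 1 interval lies below the scramble interval of 2549 to 3095, whereas the shRNA 2 interval overlaps it. The log2 fold changes in the authors' deposited tables were -1.53 ± 0.10 (SE) with an adjusted p of 8.45e-46 and -0.18 ± 0.10 (SE) with an adjusted p of 0.181. A fall of IRF3 was thus not detected in the libraries labelled shRNA 2, whose interval for the ratio to scramble ran from 0.768 to 1.01. In the authors' deposited table for shRNA 1, 27 genes had a smaller p than IRF3, which ranked 28 of 14488. Among the 12977 genes with a mean of 50 or more, 57 had a lower fold change than IRF3 with shRNA 1 and 4847 did so with shRNA 2, in the authors' deposited tables. IRF3 was therefore near the bottom of the first ranking and in the lower part of the second. Every direction given here for shRNA 2 belongs to libraries without a detected fall of their target.

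IRF7 (ENSG00000185507, chromosome 11, 612553 to 615999, minus strand) amplifies the interferon response and is usually low until interferon induces it. Its reconstructed mean was 745 (645 to 861) normalised reads in scramble cells, 564 (487 to 653) with shRNA 1 and 915 (794 to 1055) with shRNA 2. The 2 hairpin arms lie on either side of the scramble arm, and their intervals do not overlap each other, while each overlaps that of scramble. In the authors' deposited tables, IRF7 had a log2 fold change of -0.40 ± 0.15 (SE, adjusted p = 0.0350) with shRNA 1 and 0.30 ± 0.15 (SE, adjusted p = 0.129) with shRNA 2. The difference, shRNA 2 minus shRNA 1, was 0.70 ± 0.21 on the log2 scale, a ratio of 1.62, with an adjusted p of 0.00654 in the z test on the authors' deposited values. The call with shRNA 1 was lost without the filter on low genes (adjusted p = 0.0790) and after recentring on the median gene (adjusted p = 0.0652). The call of the difference was kept in both, with adjusted p-values of 0.0149 and 0.00666.

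IRF5 (ENSG00000128604, chromosome 7, 128937612 to 128950035, plus strand), an activator of inflammatory cytokine genes in B cells and macrophages, was the most abundant of the 7. Its reconstructed mean was 4089 (3784 to 4419) normalised reads in scramble cells, 4908 (4544 to 5301) with shRNA 1 and 5447 (5044 to 5881) with shRNA 2. The scramble interval lies below both hairpin arms, whose own intervals overlap. IRF5 was the 1 member called in both comparisons. In the authors' deposited tables it rose by 0.26 ± 0.08 on the log2 scale with shRNA 1 (SE, adjusted p = 0.00673) and by 0.41 ± 0.08 with shRNA 2 (SE, adjusted p = 2.85e-06). These are ratios of 1.20 (95% interval 1.08 to 1.34) and 1.33 (1.19 to 1.49), and both calls were lost with a minimum absolute log2 fold change of 0.5. Both comparisons use the same scramble libraries, so they are not independent of each other. The hairpins differed by 0.15 (95% interval -0.07 to 0.37) on the log2 scale, with an adjusted p of 0.388 in the z test on the authors' deposited values, a difference that was not called.

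IRF1 (ENSG00000125347, chromosome 5, 132481609 to 132490798, minus strand) is induced by interferon gamma through the GAS element of its promoter and activates genes of antigen presentation. Its reconstructed mean was 2944 (2712 to 3197) normalised reads in scramble cells, 3239 (2985 to 3516) with shRNA 1 and 3403 (3136 to 3693) with shRNA 2, and the intervals of all arms overlap. The log2 fold changes in the authors' deposited tables were 0.14 ± 0.09 (SE, adjusted p = 0.262) and 0.21 ± 0.09 (SE, adjusted p = 0.0497). The second value lies just inside the threshold, and without the filter on low genes its adjusted p was 0.0956. The difference between hairpins was 0.07 (-0.17 to 0.31) on the log2 scale, with an adjusted p of 0.761 in the z test. IRF2 (ENSG00000168310, chromosome 4, 184387713 to 184474580, minus strand), which competes with IRF1 and also maintains basal expression of some innate immune genes, had reconstructed means of 2559, 2549 and 2647 normalised reads in scramble, shRNA 1 and shRNA 2 cells. As a ratio of the highest to the lowest arm, these are the closest values of any of the 7 genes. Its log2 fold changes were -0.01 ± 0.11 and 0.05 ± 0.10 (SE) in the authors' deposited tables, neither called. The 95% intervals of its ratios, 0.864 to 1.15 and 0.897 to 1.19, leave out changes as large as that of IRF3 with shRNA 1.

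IRF8 and IRF9 were the least abundant members. IRF8 (ENSG00000140968, chromosome 16, 85898803 to 85922609, plus strand), a factor of germinal centre B cells and of myeloid cells that is usually low in plasma cells, had reconstructed means of 272, 270 and 330 normalised reads in the scramble, shRNA 1 and shRNA 2 arms. In the authors' deposited tables IRF8 stood at -0.01 ± 0.24 with shRNA 1 and 0.28 ± 0.24 with shRNA 2 (log2, SE), and the adjusted p-values were 0.987 and 0.440. IRF9 (ENSG00000213928, chromosome 14, 24161053 to 24166565, plus strand), the DNA-binding subunit of ISGF3, had reconstructed means of 401, 413 and 340 normalised reads. Its log2 fold changes were 0.04 ± 0.19 and -0.24 ± 0.19 (SE) in the authors' deposited tables, with adjusted p-values of 0.920 and 0.411. The intervals of all arms overlap for both genes. The hairpins differed by 0.29 (-0.38 to 0.96) for IRF8 and by -0.28 (-0.81 to 0.25) for IRF9 on the log2 scale, neither called in the z test. Differences inside these intervals were not excluded for either gene.

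The precision followed abundance. The SE of the log2 fold change was between 0.08 (IRF5) and 0.24 (IRF8) in both comparisons of the authors' deposited tables. For all genes the median SE was 0.360 at means from 50 to 200, 0.174 from 200 to 1000 and 0.106 above 1000, so the IRF genes were measured about as precisely as other genes of their abundance. The dispersion of each member was also solved from each of the 2 tables. The values were nearly equal, at 0.00319 and 0.00318 for IRF1 and at 0.0244 and 0.0247 for IRF8. Both tables list the same overall mean for each member, as a shared fit of all libraries would give. With a shared fit this closeness is built in. It checks the reconstruction only and is not separate evidence of precision.

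**Figure D3:**
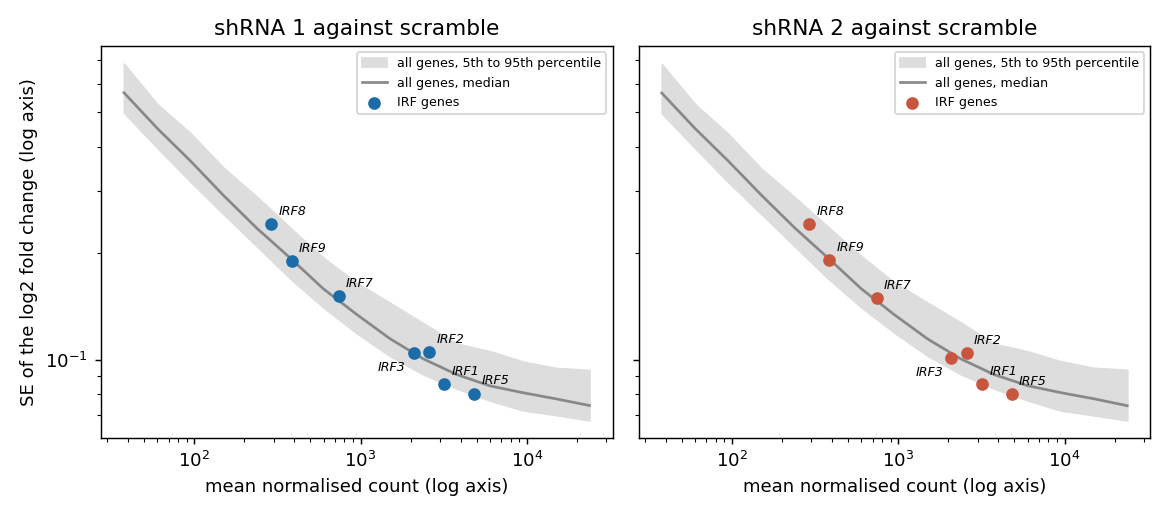
Standard error of the log2 fold change (vertical, log axis) against the mean normalised count (horizontal, log axis) for the 7 IRF genes as points, over the median and the 5th to 95th percentile of all genes, for shRNA 1 (left) and shRNA 2 (right). IRF8 at a mean of 291 has the widest error of the 7 and IRF5 at 4815 the narrowest.

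Reads of 3 members can be shared with other annotated genes. Salmon, named in the submitters' processing notes, divides reads that fit several transcripts, and no source used here says whether strand was used. In GENCODE 29, 734 bases of IRF3 exons, 19.3% of their total, lie opposite exons of BCL2L12. BCL2L12, of the BCL2 family, stood at -0.05 ± 0.17 with shRNA 1 and -0.34 ± 0.17 with shRNA 2 (log2, SE), called in neither of the authors' deposited tables. IRF1 has 1716 exon bases (22.0%) opposite C5orf56 and 469 (6.01%) opposite AC116366.3. C5orf56 stood at -0.29 ± 0.15 and 0.34 ± 0.15 (SE) in the authors' deposited tables, called in neither, while the difference between hairpins had an adjusted p of 0.0151 in the z test. IRF9 shares 1838 exon bases (48.4%) with AL136295.5 on the same strand, a gene model that runs from 24151218 to 24167402 across IRF9. In the authors' deposited tables AL136295.5 had a mean of 85.7 normalised reads and stood at -0.08 ± 0.37 and 0.53 ± 0.36 (log2, SE), neither called. The division of reads between IRF9 and this model is uncertain. No other annotated gene shares exon bases with IRF2, IRF5, IRF7 or IRF8.

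**Figure D4:**
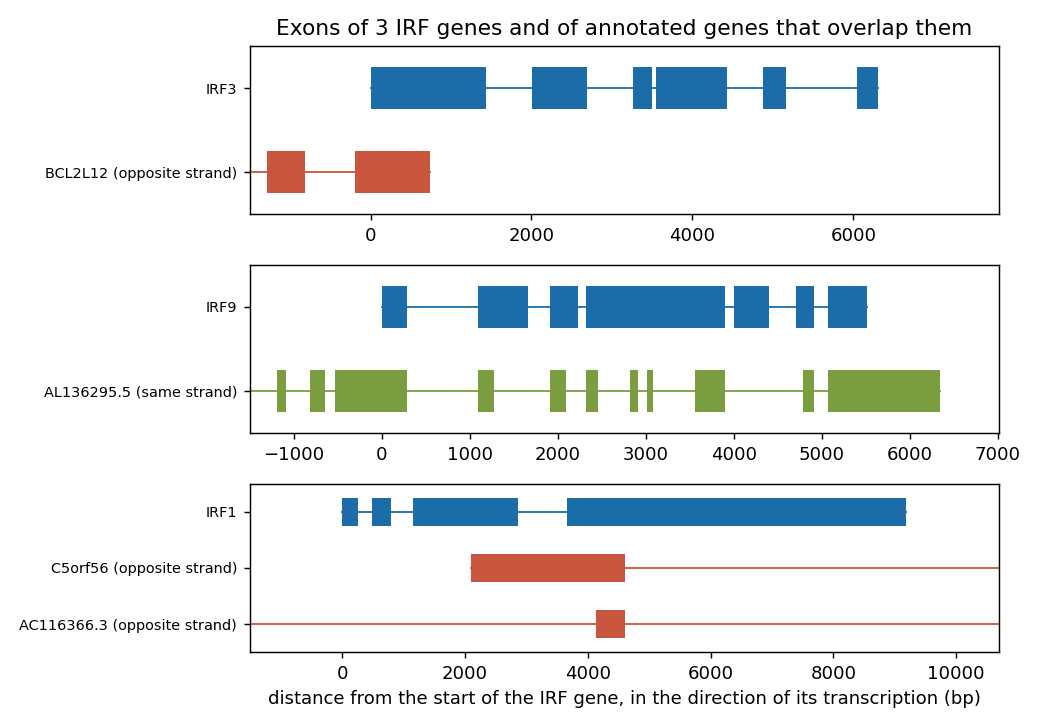
Exon blocks of IRF3, IRF9 and IRF1 and of the annotated genes whose exons overlap them, by distance in bases from the start of the IRF gene along its transcription (blue: the IRF gene, green: same strand, red: opposite strand). BCL2L12 covers 734 exon bases at the start of IRF3, and AL136295.5 covers 1838 exon bases along IRF9.

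Among the nearest annotated genes, PHRF1, which ends 331 bases from IRF7, fell with shRNA 1 at -0.34 ± 0.11 (SE, adjusted p = 0.00936) and was not called with shRNA 2 at -0.22 ± 0.11 (SE) in the authors' deposited tables. SCAF1, 927 bases from IRF3, was at -0.05 ± 0.08 with shRNA 1 and fell with shRNA 2 at -0.34 ± 0.08 (SE, adjusted p = 0.000345) in the authors' deposited tables. PRMT1, the neighbour of IRF3 on the other side, was called in neither, as were AC116366.1 beside IRF1 and LINC02362 beside IRF2. AC099343.3, a divergent noncoding RNA that starts 222 bases from IRF2, rose with shRNA 1 at 0.83 ± 0.29 (SE, adjusted p = 0.0227) and stood at -0.44 ± 0.30 (SE) with shRNA 2 in the authors' deposited tables, while IRF2 itself was called in neither. Next to IRF9, RNF31, which encodes a subunit of the linear ubiquitin ligase, rose with shRNA 2 at 0.36 ± 0.14 (SE, adjusted p = 0.0375), as did the meiotic cohesin gene REC8 at 0.93 ± 0.36 (SE, adjusted p = 0.0368), in the authors' deposited tables.

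Genes with the most similar pattern were taken as those with the smallest Euclidean distance over the 2 log2 fold changes, among 11826 other genes with a mean of 50 or more, an adjusted p in both tables and a symbol found on 1 row only. This measure rests on 2 values from 3 arms and is a description. Nearest to IRF3 were UBL4A (-1.54 and -0.21), TOM1 (-1.56 and -0.22) and SCPEP1 (-1.48 and -0.15 with shRNA 1 and shRNA 2 in the authors' deposited tables), at distances of 0.0276, 0.0519 and 0.0564. Nearest to IRF7 were SLC30A4 (-0.39 and 0.28), BEST3 (-0.41 and 0.27) and ZNF526 (-0.38 and 0.29) in the authors' deposited tables. Nearest to IRF5 were NBPF14 (0.27 and 0.42), CLEC12A-AS1 (0.27 and 0.42) and C9orf16 (0.26 and 0.42), and next in order for IRF1, whose nearest gene is not reported here, were STX1A (0.14 and 0.20) and MYT1L (0.13 and 0.20), from the authors' deposited tables.

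Genes whose products activate IRF3 and IRF7 were called about as often as all genes. Of 22 genes of this pathway, 20 were tested with shRNA 1, where 2 were higher and 3 lower, and 21 with shRNA 2, where 6 were higher and 1 lower, per the authors' deposited tables. These are 25% and 33.3% of those tested, near the 24.6% and 29% of all tested genes, and the median log2 fold changes were 0.07 and -0.01. The kinase genes stood apart from each other: IKBKE was higher at 0.61 ± 0.10 and 0.50 ± 0.10 (SE), and TBK1 was at 0.06 ± 0.12 and -0.03 ± 0.12 (SE), called in neither of the authors' deposited tables. MAVS, the adaptor of RNA sensors, fell with shRNA 1 at -0.74 ± 0.09 (SE, adjusted p = 4.97e-16) and was at -0.20 ± 0.08 (SE) without a call with shRNA 2 in the authors' deposited tables. UNC93B1, which carries Toll-like receptors to endosomes, rose with both hairpins, at 0.69 ± 0.08 and 0.54 ± 0.08 (SE) in the authors' deposited tables.

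MYD88, the adaptor that couples those receptors to IRF5 and IRF7, went opposite ways, as IRF7 did in value. It fell with shRNA 1 at -1.06 ± 0.15 (SE, adjusted p = 2.50e-10) and rose with shRNA 2 at 0.42 ± 0.15 (SE, adjusted p = 0.0195) in the authors' deposited tables. The difference was 1.47 on the log2 scale, with an adjusted p of 2.18e-10 in the z test. IRAK1, the kinase downstream of MYD88, fell with shRNA 1 at -0.93 ± 0.09 (SE, adjusted p = 7.40e-23) and stood at -0.15 ± 0.09 (SE, adjusted p = 0.227) with shRNA 2 in the authors' deposited tables. In the authors' deposited table for shRNA 2, the DNA sensor gene CGAS fell at -1.04 ± 0.17 (SE), and TBKBP1, which encodes a TBK1-binding adaptor, rose at 2.09 ± 0.40 (SE) from a low level. Neither was called with shRNA 1. STING1, listed as TMEM173, had a mean of 8.90 normalised reads and no adjusted p.

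Genes of IRF inhibitors were called in 5 of 12 tested cases with shRNA 1 (1 higher, 4 lower) and in 6 of 13 with shRNA 2 (4 higher, 2 lower), per the authors' deposited tables. These are 41.7% and 46.2%, beside 24.6% and 29% of all tested genes, with medians of -0.05 and 0.21. IRF2BP2, a corepressor that binds IRF2, was higher with both hairpins, at 0.37 ± 0.09 and 0.33 ± 0.09 (SE) in the authors' deposited tables, while IRF2 was called in neither. An antisense gene, AL160408.2, overlaps 14.7% of the exon bases of IRF2BP2. The ubiquitin ligase gene UBE3C was lower with both, at -0.46 ± 0.08 and -0.43 ± 0.08 (SE) in the authors' deposited tables. TRIM21, a ubiquitin ligase reported to act on several IRFs, fell with shRNA 1 at -0.62 ± 0.15 (SE) and was at 0.16 ± 0.15 (SE) with shRNA 2 in the authors' deposited tables, a difference with an adjusted p of 0.00129 in the z test. The deubiquitinase gene OTUD5 was at -0.02 ± 0.09 and rose with shRNA 2 at 0.53 ± 0.09 (SE, adjusted p = 2.05e-08) in the authors' deposited tables.

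Interferon receptor and JAK-STAT genes were the list with the most calls for its size with shRNA 2. Of 11 tested genes, 10 were called (4 higher, 6 lower), or 90.9% against the 29% of all genes, and 5 (1 higher, 4 lower) with shRNA 1, per the authors' deposited tables. Both medians were -0.24. The lowest mean in this list was 398 normalised reads, whereas the share over all genes includes genes of low counts. STAT2, the partner of IRF9, fell with both hairpins, at -0.51 ± 0.08 (adjusted p = 2.06e-08) and -0.24 ± 0.08 (SE, adjusted p = 0.0146) in the authors' deposited tables. IRF9 itself was called in neither comparison.

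The receptor genes of this list split. IFNAR2, a chain of the type I interferon receptor, fell at -0.35 ± 0.09 and -0.55 ± 0.09 (SE) in the authors' deposited tables. An antisense gene, IL10RB-DT, overlaps 39.1% of the exon bases of IFNAR2 and also fell with both, at -0.90 ± 0.17 and -0.47 ± 0.17 (SE). IL10RB, a chain shared by interleukin 10 and lambda interferon receptors, fell with shRNA 1 at -0.65 ± 0.11 and rose with shRNA 2 at 0.29 ± 0.10 (SE) in the authors' deposited tables, a difference with an adjusted p of 1.01e-08 in the z test. The symbol IFNAR2 stands on 2 rows of each table. The second row (ENSG00000249624) is a gene model that shares 44.2% of the exon bases of IFNAR2 and 38.1% of those of IL10RB, and it fell with shRNA 1 at -4.57 ± 0.73 (SE) in the authors' deposited table. IFNGR1, the ligand-binding chain of the interferon gamma receptor, fell with shRNA 1 at -0.60 ± 0.17 and rose with shRNA 2 at 0.45 ± 0.17 (SE) in the authors' deposited tables. The other chain, IFNGR2, rose with both, at 0.30 ± 0.10 and 0.47 ± 0.10 (SE). IFNAR1 and IFNLR1, partner chains of IFNAR2 and IL10RB, were not called with shRNA 1, at -0.15 ± 0.08 and -0.24 ± 0.13 (SE). With shRNA 2 both fell, at -0.45 ± 0.08 and -0.74 ± 0.13 (SE). JAK1, the kinase used by these receptors, was at 0.08 ± 0.09 and rose with shRNA 2 at 0.60 ± 0.09 (SE, adjusted p = 4.71e-10) in the authors' deposited tables. Interferon genes themselves were nearly absent: of 21 fixed names, 5 are listed, with mean normalised reads of at most 13.5 (IFNG), and IFNB1 is not listed in the tables used here.

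Among 10 DNA-binding partners and coactivators of IRFs, 8 were tested with shRNA 1 (0 higher, 2 lower) and 9 with shRNA 2 (1 higher, 3 lower), per the authors' deposited tables. That is 25% and 44.4% called, beside 24.6% and 29% of all tested genes. SPI1, which pairs with IRF4 and IRF8 on composite ETS-IRF sites, was at 0.09 ± 0.15 and 0.16 ± 0.15 (SE) in the authors' deposited tables, called in neither. KAT2B, an acetyltransferase, fell with both, at -0.92 ± 0.11 and -0.28 ± 0.11 (SE), and EP300, the coactivator of phosphorylated IRF3, rose with shRNA 2 at 0.29 ± 0.08 (SE) in the authors' deposited tables.

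Genes known to be induced by IRF3 were called in 1 of 7 tested cases with shRNA 1, where IRF3 mRNA was lower, and in 2 of 8 with shRNA 2, per the authors' deposited tables. These shares were 14.3% and 25%, beside 24.6% and 29% of all tested genes, and the medians were 0.08 and 0.03. With counts this small, the shares of the list are not separated from those over all genes. IFIT1, PMAIP1, ISG15 and IFIT3 had low means of 72.1, 68.3, 109 and 163 normalised reads, where SEs are wide. IFIT3, an antiviral protein, rose with shRNA 1 at 0.72 ± 0.27 (SE, adjusted p = 0.0371) in the authors' deposited table. The chemokine genes CXCL10 and CCL5 were not called with shRNA 1, and with shRNA 2 CXCL10 rose at 2.55 ± 0.42 (SE, adjusted p = 1.42e-08), while CCL5 fell at -1.17 ± 0.15 (SE, adjusted p = 1.46e-13) in the authors' deposited table. The SE of CXCL10 is wide for its mean of 1023 normalised reads, where the median SE of genes above 1000 is 0.106. No gene of this list fell with shRNA 1 at an adjusted p below 0.05 by DESeq2, and 2 of the 7 had an unadjusted p below 0.05 in either direction.

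Genes induced through ISGF3 were called in 7 of 14 tested cases with shRNA 1 (5 higher, 2 lower) and in 7 of 18 with shRNA 2 (2 higher, 5 lower), with medians of 0.19 and -0.16, in the authors' deposited tables. The shares called were 50% and 38.9%, beside 24.6% and 29% of all tested genes, which include genes of low counts. Of the 12977 genes with a mean of 50 or more, 3603 were called with shRNA 1 and 4957 with shRNA 2. The 18 list genes tested with shRNA 2 include IFI44L, IFI27, IFITM1 and USP18, with means under 50 and no call. The share of 38.9% therefore rests on another filter than these counts. MX1, an antiviral GTPase, rose with shRNA 1 at 0.47 ± 0.14 and fell with shRNA 2 at -0.47 ± 0.14 (SE) in the authors' deposited tables. EIF2AK2, the kinase activated by double-stranded RNA, rose with shRNA 1 at 0.27 ± 0.10 and fell with shRNA 2 at -0.56 ± 0.10 (SE) in the authors' deposited tables, with an adjusted p of the difference of 2.15e-07 in the z test. OAS1 and OAS3, synthetases that activate RNase L, fell with shRNA 2 at -0.99 ± 0.16 and -1.16 ± 0.20 (SE), and stood at -0.25 ± 0.16 and 0.42 ± 0.18 (SE) without a call with shRNA 1 in the authors' deposited tables. ADAR, the RNA-editing enzyme, fell with both, at -0.77 ± 0.08 and -0.19 ± 0.08 (SE) in the authors' deposited tables.

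Among targets of the other members, those of IRF1 were the longest list. Of 15 tested genes induced by IRF1, 2 were higher and 3 lower with shRNA 1, and 0 higher and 3 lower with shRNA 2, where IRF1 itself was called higher, per the authors' deposited tables. These are 33.3% and 20% called, beside 24.6% and 29% of all tested genes. TAP2, a peptide transporter subunit, fell with shRNA 1 at -0.59 ± 0.10 (SE), TAPBP fell with both at -0.26 ± 0.08 and -0.40 ± 0.08 (SE), and the guanylate-binding protein gene GBP2 fell with shRNA 2 at -1.90 ± 0.33 (SE) in the authors' deposited tables. TAP2 shares 32.3% of its exon bases with the gene model AL669918.1, and GBP2 shares 9.89% with its paralogue GBP7, so both levels are uncertain. PSMB9, an immunoproteasome subunit, and CASP1, the inflammasome caspase, rose by 0.49 ± 0.12 and 0.52 ± 0.12 (log2, SE) in the authors' deposited table for shRNA 1. Among the 2 genes chosen for IRF2, GSDMD, the pore-forming protein of pyroptosis, fell with shRNA 1 at -0.28 ± 0.11 (SE, adjusted p = 0.0376) in the authors' deposited table, and none was called by DESeq2 with shRNA 2 (0 at an unadjusted p below 0.05). Of 6 tested genes linked to IRF8, none was called by DESeq2 with shRNA 1 (1 at an unadjusted p below 0.05). With shRNA 2, CTSS, a lysosomal protease of antigen processing, rose at 0.50 ± 0.11 and CIITA, the MHC class II regulator, fell at -0.35 ± 0.12 (SE) in the authors' deposited table, although DEXI overlaps 11.6% of the exon bases of CIITA on the other strand.

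**Figure D5:**
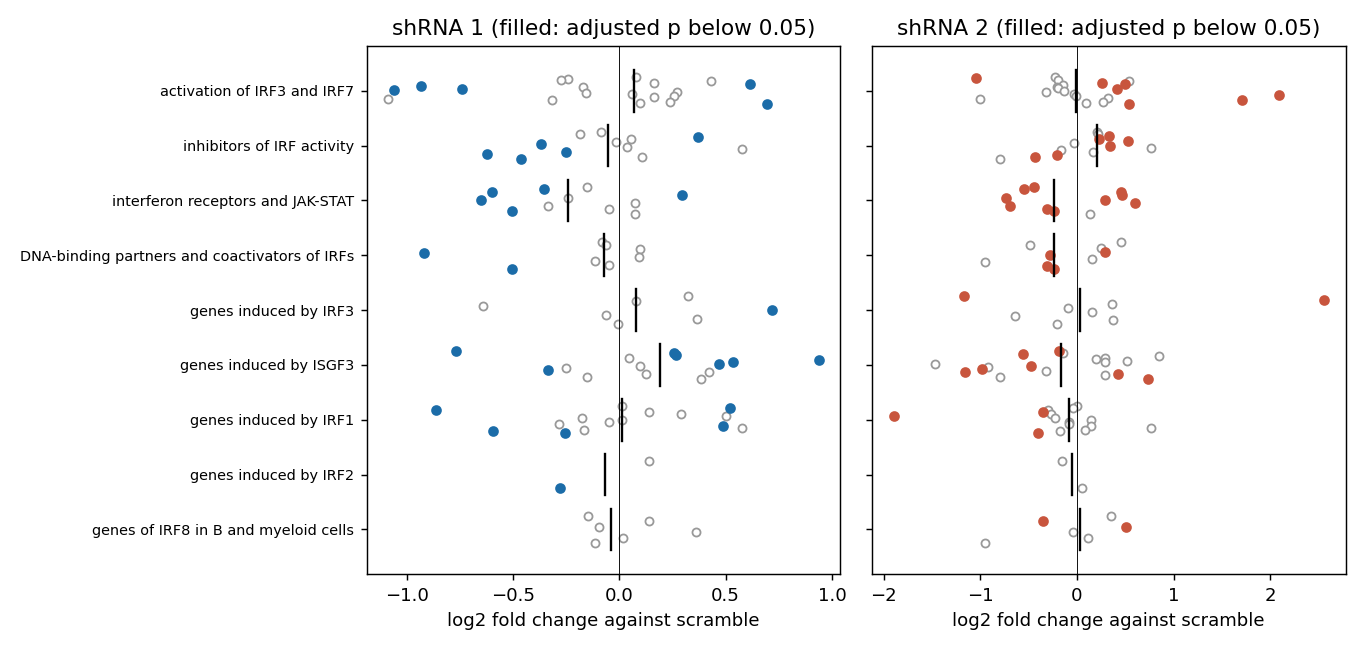
Log2 fold change of each tested gene (points) in 9 lists of the IRF pathway, for shRNA 1 (left) and shRNA 2 (right), with filled points for an adjusted p below 0.05 and black bars at list medians. Calls lie on both sides of zero in most lists, and 10 of 11 interferon receptor and JAK-STAT genes are filled with shRNA 2.

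Several of the named pathway genes carry the ISRE-type letters in a RefSeq promoter window. By gene, these letters were found for 5 of 7 matched genes of the IRF3 list, 10 of 16 of the ISGF3 list and 8 of 9 of the IRF1 list, beside 4.38% of all 27305 genes with a window. The sites below are shown because their genes moved in different directions with the same type of site. They lie at MYD88 (chr3:38138591-38138618, plus strand), TRIM21 (chr11:4393667-4393694, minus strand), TAP2 (chr6:32838779-32838806, minus strand), EIF2AK2 (chr2:37156968-37156995, minus strand), OAS3 (chr12:112938322-112938349, plus strand) and CXCL10 (chr4:76023700-76023727, minus strand).
MYD88: cgcttctcgGAAAGCGAAAgccggcggg
TRIM21: ttctgagcgGAAACTGAAAgtgaaatag
TAP2: tggggaagcGAAAGCGAAAgctgcccga
EIF2AK2: gtccaagggGAAAACGAAActgagaacc
OAS3: gaaagaaacGAAACTGAAAgcagggaat
CXCL10: catgttttgGAAAGTGAAAcctaattca

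With shRNA 1, MYD88, TRIM21 and TAP2 fell and EIF2AK2 rose. With shRNA 2, MYD88 and CXCL10 rose and EIF2AK2 and OAS3 fell, by the values given above. Over all genes with the ISRE-type letters in a window, 105 of 417 tested genes (25.2%) were called with shRNA 1 (48 higher, 57 lower), beside 27.6% of 9584 genes with a window and without the letters, from the authors' deposited table. With shRNA 2, 151 of 447 (33.8%) were called (63 higher, 88 lower), beside 34.3% of 10446, from the authors' deposited table. Their median log2 fold changes were -0.01 and -0.02, beside -0.05 and -0.05 for genes without the letters. These shares lie close to each other, and no difference between genes with and without the letters was tested.

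IRF4, by comparison, fell with both hairpins, at -1.21 ± 0.08 and -1.87 ± 0.08 (SE) in the authors' deposited tables, from a reconstructed mean of 17637 to 7613 and 4823 normalised reads. IRF3 stood at -1.53 and -0.18 in the same comparisons of the authors' deposited tables, and the 2 genes were not tested against each other.

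The identity of the cells was read from markers. Of 10 plasma cell markers, 9 had a mean of 50 or more, the exception being CD27 (22.4). Their summed reconstructed level, which includes IRF4 itself, was 143291 normalised reads in scramble, 105364 with shRNA 1 and 94564 with shRNA 2. The markers did not all follow this sum: reconstructed means in scramble, shRNA 1 and shRNA 2 cells were 21049, 11803 and 9461 normalised reads for XBP1, but 1229, 1484 and 2283 for CD38. All 5 B cell markers had means under 50, the highest being CD79A, with sums of 52.3, 46.7 and 57.1 normalised reads in the same order. Of 5 myeloid markers, 4 are listed, with sums of 41.9, 188 and 112, mainly through ITGAM (21.7, 156 and 88.4). Of 5 T and NK cell markers, 3 are listed, with sums of 261, 181 and 89.7. Means of 50 or more were seen for 2 of these, NCAM1 (224, 89.5 and 33.1 by arm) and CD3E (33.2, 84.4 and 53.7). NCAM1 alone made up most of the sum in scramble cells. All 3 epithelial and all 3 fibroblast markers had means under 50. The part of these shifts in the values of the IRF genes was not tested. In bulk RNA, fewer cells with a transcript and less of it per cell cannot be told apart.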

How the data were processed

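Poly(A)-selected RNA of 6 MM.1S libraries was measured, 2 per arm, per the labels. The submitters' processing notes name Salmon 0.12.0, DESeq2 1.24.0 and GRCh38 (hg38). No source used here gives their settings, the annotation or strand handling. The authors deposited, per the file headers, a mean normalised read count (a signal over the fitted libraries), a log2 fold change with its SE on the log2 scale, a Wald score, and p-values with adjusted p-values across all genes. Depth per library is unknown.

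Tests of each comparison are the authors' DESeq2 results at an adjusted p below 0.05. The difference between hairpins was a two-sided z test over 14488 genes with Benjamini-Hochberg adjustment, and its SE is too large because both comparisons use the same scramble libraries. It was tested on simulated data. Arm means (2 libraries each) and dispersions were solved from the mean, fold changes and SEs. This assumes fold changes that are unshrunken and coded as hairpin over scramble and, for dispersions and intervals, equal size factors, which could not be checked on single libraries. Dispersions from the 2 tables differed least as coded, with a median absolute log ratio of 0.00233 over 1534 genes against 0.0275 to 0.0363 with signs turned.

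Members and lists were chosen with earlier results of these data known. Of each of 10 lists, up to 4 called genes with the lowest p were named by rule, as were overlapping and neighbouring genes, IRF4 and the 3 nearest genes of each called member. Others (TBK1, IKBKE, CGAS, TBKBP1, TMEM173, SPI1, IFNG, IFNB1, IFNGR1, IFNGR2, IFNAR1, IFNLR1, MX1, PSMB9 and CASP1) were chosen after their values were seen. Some genes selected by this rule are left out of the text. Exons came from GENCODE 29, which holds all 33095 identifiers, and promoters from RefSeq. Python 3.11.15, pandas 2.3.3 and scipy 1.17.1 were used. Alternatives were another threshold, a fold minimum, other filters on low genes, recentring, the SE of the difference and the gene length.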

Additional observations from a re-analysis of the deposited data

Results flagged for a closer look

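The effect of the hairpins against scramble differed between shRNA 1 and shRNA 2 for 2 of the 7 IRF genes in the z test on the authors' deposited values. The same test called 24% of all 14488 genes, and the share of members is not separated from that share. IRF3 differed by 1.35 on the log2 scale (shRNA 2 minus shRNA 1, adjusted p = 2.93e-18), and IRF7 by 0.70 (adjusted p = 0.00654). With the SE from reconstructed group means, which leaves out the shared scramble variance, the adjusted p of IRF7 was 2.28e-05. No group had enough libraries with listed values to look for outlying ones.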

How the results depend on the processing

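With a minimum absolute log2 fold change of 0.5, the genes called numbered 2002 with shRNA 1 and 3191 with shRNA 2, in place of 3571 and 4939, and the members called numbered 1 (IRF3) and 0, in place of 3 and 2. With shRNA 2, 1 member (IRF5) was called at a threshold of 0.01 and also without the filter on low genes. With the SE from reconstructed group means, 5715 genes differed between hairpins, in place of 3471, and 2 members in both. The 2 calls of the difference, IRF3 and IRF7, were kept under every alternative run, and so was the call of IRF3 with shRNA 1. No member changed direction with a call. IRF5 lost both calls with the fold minimum, IRF1 (shRNA 2) and IRF7 (shRNA 1) lost theirs with it and at the threshold of 0.01, and calls of IRF1 and IRF7 that were lost on refiltering or recentring are given with those genes. Per longest transcript, all 7 levels lay outside the interval of the level per exon length. No paired analysis was possible because the tables list no value of a single library, and for the same reason no library was left out and no count test was run.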
